A study of Mus musculus with 4 samples.

Results

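The genes for the translation initiation factors (Eif) and elongation factors (Eef) were followed across 4 mouse tumours. Members were taken by name alone, as genes whose mouse symbol begins with Eif or Eef and a digit, leaving out pseudogene symbols (ending in -ps, with or without a number) and Rik symbols. This gave 68 of the 46946 genes in the table, 56 Eif genes and 12 Eef genes, and left out 7 pseudogenes. The tumours form 1 group, PDGFB K27M. The sample labels call them untreated tumours of genotype K27M, a change in the tail of histone H3, from PDGF K27M Neural Stem Cells. The text on the series instead names DIPG cells, a childhood brainstem glioma, as what was injected, with the mutant H3.3, and the sources used here do not settle which applies. The labels give no promoter for PDGFB, no injection site or age, and no normal brain or second genotype, so values are given per tumour and no groups are compared. The 4 libraries carry the column names T14, T10, T8 and TUN, and no label ties these to the tumour numbers in the sample titles.

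PolyA RNA was counted per gene at 21664889 to 24369339 counts per library. A level is given as CPM, counts per 1000000 counts of the TMM-scaled library, where 1 gene is followed across libraries, and as RPKM, CPM per kilobase of merged exon, where genes are compared with each other. Genes of oligodendrocyte precursors, the lineage such gliomas resemble, were present in all 4 libraries, with Olig1 at 2518 to 3987 CPM. The libraries differed in the summed levels of neuron and mitosis genes. The 14 neuron genes listed had summed levels of 5040.2 and 4211 CPM in T14 and T10, against 1273 and 1069 CPM in T8 and TUN. The 8 mitosis genes had 703.7 and 716 CPM in T14 and T10, against 1282 and 1685 CPM in T8 and TUN. No such split was seen in the 7 microglia genes (646, 515, 577 and 671 CPM in T14, T10, T8 and TUN). The same held for the 5 endothelium genes (224, 191, 227 and 206 CPM). In bulk RNA, fewer cells of a type and less RNA per cell cannot be told apart.

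Translation starts when eIF2 brings the initiator tRNA to the small ribosomal subunit, with eIF3 as the scaffold of the complex there, while eIF4E, eIF4G and the helicase eIF4A bind the capped end of the mRNA. eIF2B recharges eIF2 with GTP, and stress kinases stop this step by phosphorylating eIF2, the signal called the integrated stress response. The 4E-binding proteins, targets of the mTOR kinase, keep eIF4E away from eIF4G. Elongation then runs on eEF1A, which delivers each aminoacyl tRNA, its exchange factor eEF1B, and eEF2, which moves the ribosome along. Mammals have 2 eEF1A genes: Eef1a1 is used by most cells, and Eef1a2 takes over in mature neurons and muscle.

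Most members were detected in all 4 tumours, and their median spread between tumours was near that of all genes tested. Of the 68, 62 reached 1 CPM in all 4 tumours, and the same number reached 5 CPM. All 62 were among the 63 members that passed the low-count filter. Of all 14266 genes tested, 13245 reached 1 CPM in all 4. Together the members took 1.30% and 1.35% of all counts in T14 and T10, and 2.02% and 1.70% in T8 and TUN. A few abundant genes weigh heavily in this sum. The 7 elongation factor genes alone took 0.49% and 0.50% in T14 and T10, and 0.92% and 0.69% in T8 and TUN. A span, the highest over the lowest CPM of a gene, was under 2-fold for 56 of the 63 members that passed the low-count filter, against 70.9% of all 14266 genes tested. The median span was 1.53-fold for members and 1.57-fold for all genes tested, and the median SD of log2 CPM was 0.29 and 0.30. With 1 group the filter keeps a gene only where it is above the limit in every tumour, so these figures leave out the 5 members that did not pass.

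Only Eef1a2 and Eif4ebp1 varied between tumours more than genes of like abundance by the edgeR goodness of fit with Benjamini-Hochberg adjustment, which called 4.34% of all genes tested. No further member had a p under 0.05 before adjustment. DESeq2, which marks genes whose dispersion lies outside its trend, marked 0 members. In simulated libraries the edgeR goodness of fit found 0% of genes changed 2-fold in 1 library, 34% of those changed 4-fold and 57.4% of those changed 8-fold, so the other 61 members are not shown to be stable.

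**Figure D1:**
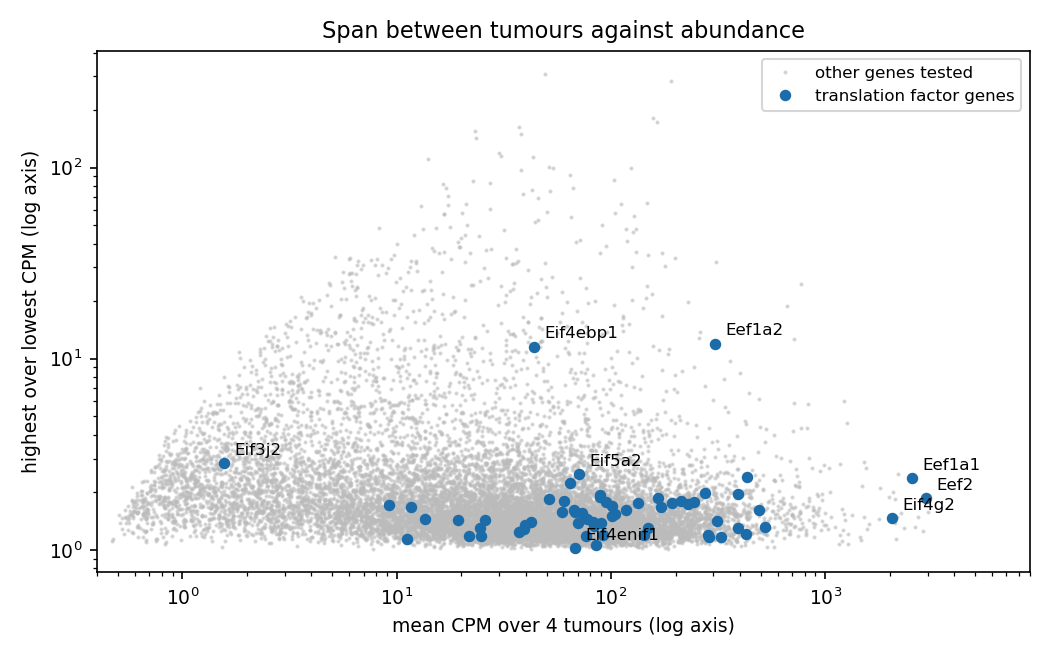
Each point is 1 gene, with its mean CPM over the 4 tumours (x, log axis) against its highest over lowest CPM (y, log axis), for the 63 translation factor genes that passed the filter and all other genes tested. Eef1a2 and Eif4ebp1 lie at 12-fold and 11.6-fold, above the other translation factor genes, of which the next, Eif3j2, lies at 2.84-fold.

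Among the elongation factors, the members that carry translation in most cells shared a pattern, and Eef1a2 had the opposite one. Eef1a1 (ENSMUSG00000037742.14, chromosome 9, 78478449 to 78489151 in mm10, minus strand) had 1649.9 and 1607 CPM in T14 and T10, against 3807 and 3039.7 CPM in T8 and TUN. Eef1a2 (ENSMUSG00000016349.10, chromosome 2, 181147653 to 181157014, minus strand) had 600.8 CPM in T14 and 386 in T10, against 190.01 in T8 and 50.1 in TUN (adjusted p = 0.000172, edgeR goodness of fit). T8 and TUN were the 2 highest libraries for Eef1a1 and the 2 lowest for Eef1a2. The call of Eef1a2 was lost without TUN (adjusted p = 0.692). Over the other alternatives in edgeR its adjusted p lay between 0.000179 and 0.000922.

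Per length, Eef1a1 exceeded Eef1a2 in all 4 tumours, by 2.3-fold and 3.48-fold in T14 and T10 and by 16.7-fold and 50.5-fold in T8 and TUN. The log2 ratio of RPKM, with 0.1 added to each, was 1.2, 1.80, 4.06 and 5.66 in this order, a mean of 3.18 ± 2.06 (SD, n = 4; exact sign-flip p = 0.13, adjusted p = 0.139 over 10 ratios). With 4 tumours this is the smallest p the two-sided exact test allows, so neither this nor any other ratio can pass 0.05. Eef1a2 made up 30.3% of the RPKM of both genes and 22.3% in T14 and T10, and 5.63% and 1.93% in T8 and TUN. The sum of both did not follow that order, at 950.1, 829.6, 1618 and 1243 RPKM.

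**Figure D2:**
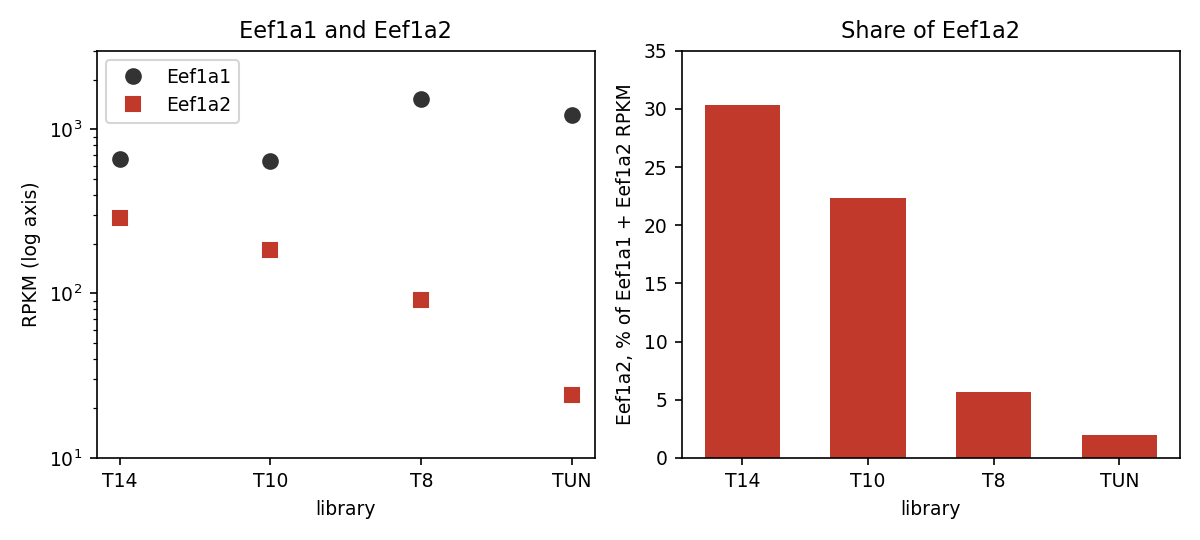
Left, RPKM (log axis) of Eef1a1 and Eef1a2 in each of the 4 libraries; right, the share of Eef1a2 in the summed RPKM of both, as bars from 0. Eef1a1 lies above Eef1a2 in every library, and the share of Eef1a2 runs from 30.3% in T14 to 1.93% in TUN.

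The 2 paralogs differ in sequence. Their longest open reading frames in GENCODE vM21 were 80.1% identical over 1389 aligned bases, and the longest identical stretch was 23 bases. Near copies of Eef1a1 lie elsewhere in the genome. Stretches of 100 bases or more at 95% identity or more to its reading frame were found in 9 other annotated genes, and the 5 of these in the table held 221 to 496 counts per library against 37258 to 90715 for Eef1a1. It is not stated how reads that fit several places were counted, so the level of Eef1a1 is uncertain. Eef1a2 had 0 such copies.

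Markers of neurons moved with Eef1a2. All 14 neuron genes had T14 and T10 as their 2 highest libraries, against 32.7% of all genes tested, and 11 of the 14 were called by the edgeR goodness of fit. Snap25, a synaptic fusion gene, stood at 1576, 1329, 124 and 63.9 CPM in T14, T10, T8 and TUN, and Rbfox3, which encodes NeuN, at 119, 58.3, 3.4 and 2.24 CPM. The exact order of Eef1a2, highest in T14, then T10, T8 and TUN, was shared by 7 of the 14 neuron genes and 4 of 8 astrocyte genes, against 10.2% of all genes tested and 0 of the other members. Astrocyte genes summed to 6752, 4305, 2150 and 2006 CPM and mature oligodendrocyte genes to 3982, 5283, 1188 and 1149 CPM. The trait was not particular to neurons. T14 and T10 were the 2 highest libraries for 7 of 8 astrocyte genes and 7 of 8 mature oligodendrocyte genes. Of these lists, 5 and 6 genes were called by edgeR. Muscle genes, of the other tissue known for Eef1a2, summed to 1.3 to 6.35 CPM. None of the 10 reached 1 CPM in all tumours, and Myh4 had 0 counts in every library. The part of these cells in the level of Eef1a2 was not tested.

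The other elongation factors lay lower in T14 and T10. Eef2 (ENSMUSG00000034994.9, chromosome 10, 81176631 to 81182507, plus strand), the translocation factor, stood at 2317, 2407, 4320.3 and 2813 CPM in T14, T10, T8 and TUN, and was the second most abundant of all genes by mean CPM. The eEF1B subunit gene Eef1b2 stood at 269, 330.002, 649.9 and 481 CPM, and Eef1g, another subunit gene, at 46.8, 42, 93.6 and 75.8 CPM. Eef1d and Eef1e1, the last for a protein of the tRNA synthetase complex, spanned 1.76-fold and 1.84-fold. T8 was the highest library and T14 or T10 the lowest for all 6 genes of this group other than Eef1a2. Over all genes tested, T8 was the highest library for 25.1%. None of the 6 was called by edgeR or DESeq2. Per length, Eef1a1 (1013 ± 434 RPKM, SD, n = 4) and Eef2 (956.8 ± 300.01 RPKM) stood far above Eef1b2 (171 ± 67.2 RPKM), and Eef1g (24.8 ± 9.4 RPKM) and Eef1d (22.8 ± 5.46 RPKM) below it. Eef1g has 4 annotated near copies that may share its reads.

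Of the enzymes that modify elongation factors, Eef2k, the kinase that inhibits eEF2, stood at 67.1, 60.5, 83.9 and 67.6 CPM. The log2 ratio of Eef2 to Eef2k was 6.57 ± 0.24 (SD, n = 4) and from 6.30 to 6.88 in single tumours. The methyltransferase genes Eef1akmt1 (31 ± 5.51 RPKM), Eef1akmt2 (12.3 ± 0.969 RPKM) and Eef2kmt (3.49 ± 0.879 RPKM) were present in all 4 tumours. Eef1akmt3 had 2 to 6 counts per library.

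**Figure D3:**
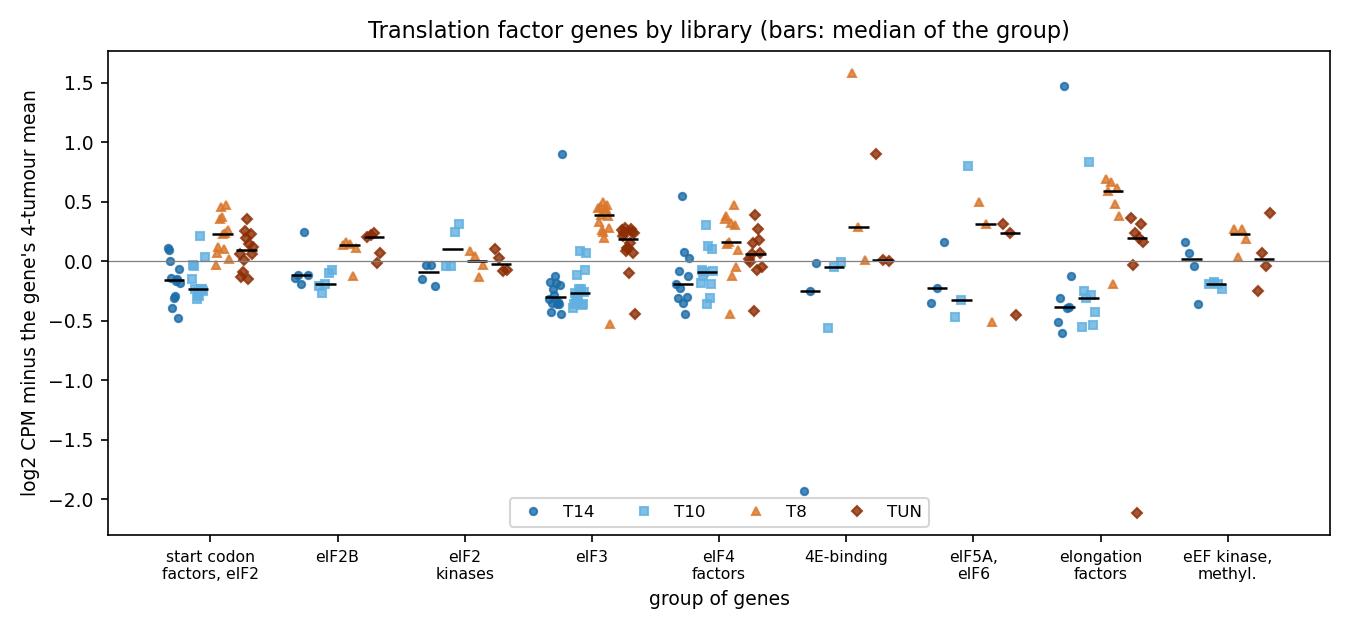
For each member that passed the filter, log2 CPM in a library minus the mean of that gene over the 4 tumours (y), by group of genes (x) and library (colour and symbol), with a bar at the median of the group. In the elongation factors the medians of T14 and T10 lay below 0 (-0.38 and -0.31) and those of T8 and TUN above it (0.59 and 0.20), and likewise in eIF3.

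This pattern was common to the members as a whole. T8 and TUN were the 2 highest libraries for 45 of 63 members, against 32.9% of all genes tested, and T8 alone was the highest for 42, against 25.1%. The median log2 deviation of the members was -0.19 and -0.20 in T14 and T10, and 0.26 and 0.11 in T8 and TUN, while for all genes tested it lay between -0.01 and 0.01. The count of 45 was the same with DESeq2 size factors and with library totals, and no scaling moved the median of all genes by over 0.05 log2 units. Mitosis genes ran partly with it, since T8 and TUN were the 2 highest libraries for all 8, but all 8 were highest in TUN. Oligodendrocyte precursor genes were highest in T8 for 7 of 7. The part of dividing or precursor cells in the levels of translation factor genes was not tested.

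In 6 members T14 and T10 were instead the 2 highest libraries, against 32.7% of all genes tested. They were Eef1a2, the helicase gene Eif4a2, Eif5a2, Eif4g3, the kinase gene Eif2ak4 and Eif3j2. Eif4g3 and Eif2ak4 spanned only 1.19-fold and 1.29-fold between tumours. Eif3j2 had 23 to 62 counts per library, and its split from the near-identical Eif3j1 is uncertain. For the first 4 of the 6, and for Eif3j2, the closest paralog had T8 and TUN highest. Eif4a2 stood at 385, 326, 194 and 198 CPM in T14, T10, T8 and TUN, and its paralog Eif4a1 at 62.7, 68.9, 119 and 103 CPM. The log2 ratio of Eif4a1 to Eif4a2 was below 0 in all 4 tumours, at -2.31, -1.94, -0.41 and -0.63, a mean of -1.32 ± 0.94 (SD, n = 4; exact sign-flip p = 0.13). Eif4a1 has 3 annotated near copies that may share its reads. The 2 of these that were counted held 36 to 94 counts per library, against 1416 to 2834 for Eif4a1. The level of Eif4a1 and its ratio to Eif4a2 are thus uncertain. Eif5a2 stood at 73.4, 115, 46.3 and 48.3 CPM. Eif5a, for the factor that helps the ribosome through difficult peptide bonds, stood at 295, 272, 532 and 469 CPM. Their log2 ratio was 3.08, 2.32, 4.59 and 4.35, above 0 in all 4. The log2 ratio of Eif4g1 to Eif4g3 was 1.5 ± 0.30 and lay between 1.2 and 1.79 in single tumours. Apart from Eef1a2, none of the genes named here was called by edgeR or DESeq2.

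Promoters were searched for 3 short motifs, since 45 of 63 members had T8 and TUN as their 2 highest libraries. RefSeq promoters (GRCm38.p6, 250 bases before to 50 after a gene's start) were matched for 52 of the 68 members. The E-box CACGTG, which MYC and its partner MAX bind and which reads the same on both strands, was in 12 of the 52 (23.1%), against 11.5% of 10879 tested genes and 8.09% of 27025 genes with a promoter. The Ets core CCGGAAGT, on either strand, was in 9 (17.3%), against 8.6% and 4.31%, and TATAAA, on either strand, in 5 (9.62%), against 8.61% and 15.7%. The motifs do not overlap one another in letters. T8 and TUN were the 2 highest libraries for 9 of the 12 tested members with an E-box and for 26 of 38 without one. Those with an E-box that did not have this pair highest were Eif1b, Eif3a and Eif5a2. The 60 bases before the annotated start are given for 3 members with an E-box there and T8 and TUN as the 2 highest libraries, and for Eef1a2 and Eif4a2, which were highest in T14 and T10. Capitals mark CACGTG and TATAAA.
Eef2 (chr10:81176571-81176630, plus strand): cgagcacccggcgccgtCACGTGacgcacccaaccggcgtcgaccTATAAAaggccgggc
Eif4g1 (chr16:20672667-20672726, plus strand): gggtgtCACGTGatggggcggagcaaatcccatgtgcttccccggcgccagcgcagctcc
Eif3k (chr7:28981889-28981948, minus strand): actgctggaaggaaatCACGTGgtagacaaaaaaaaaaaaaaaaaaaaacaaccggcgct
Eef1a2 (chr2:181157016-181157075, minus strand): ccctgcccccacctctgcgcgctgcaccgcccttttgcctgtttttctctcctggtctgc
Eif4a2 (chr16:23107408-23107467, plus strand): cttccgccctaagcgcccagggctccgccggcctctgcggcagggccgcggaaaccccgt
These 5 were chosen after their values were seen. The RefSeq start lay 0 to 74 bases from the 5′ end of the gene in the table, except in Eif4g1, where it lay 4414 bases away. In Eef2 the E-box begins 43 bases before the annotated start, in Eif4g1 54 and in Eif3k 44. Neither window of Eef1a2 or Eif4a2 holds any of the 3 motifs. Eif5a2, which also had T14 and T10 as its 2 highest libraries, does hold an E-box and an Ets core in its promoter. A match is letters only, and no binding was measured here.

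The 14 eIF3 genes encode the largest initiation factor. T8 was the highest library for all 12 genes of the subunits a to i and k to m, against 25.1% of all genes tested. T8 and TUN were the 2 highest for 11 of the 12, the exception being Eif3a, against 32.9% of all genes tested. Summed, these 12 had 1846 and 1935 CPM in T14 and T10, against 2893 and 2473 CPM in T8 and TUN. Eif3h stood at 165, 156, 280 and 247 CPM, Eif3k at 102, 89.7, 145 and 134, and Eif3e at 119, 133, 220.1 and 189. Spans in the 12 ran from 1.3-fold to 1.86-fold. Levels per length ran from 28.3 RPKM (Eif3m) to 169 RPKM (Eif3h), a 5.98-fold range between subunits that is wider than any subunit's span between tumours. The loosely attached subunit eIF3j has 2 near-identical genes, Eif3j1 (2 ± 0.442 RPKM) and Eif3j2 (0.656 ± 0.347 RPKM), so their split is uncertain. Eif3j2 had 62 counts in T14, 37 in T10 and 23 in both T8 and TUN. No eIF3 gene was called by edgeR or DESeq2.

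**Figure D4:**
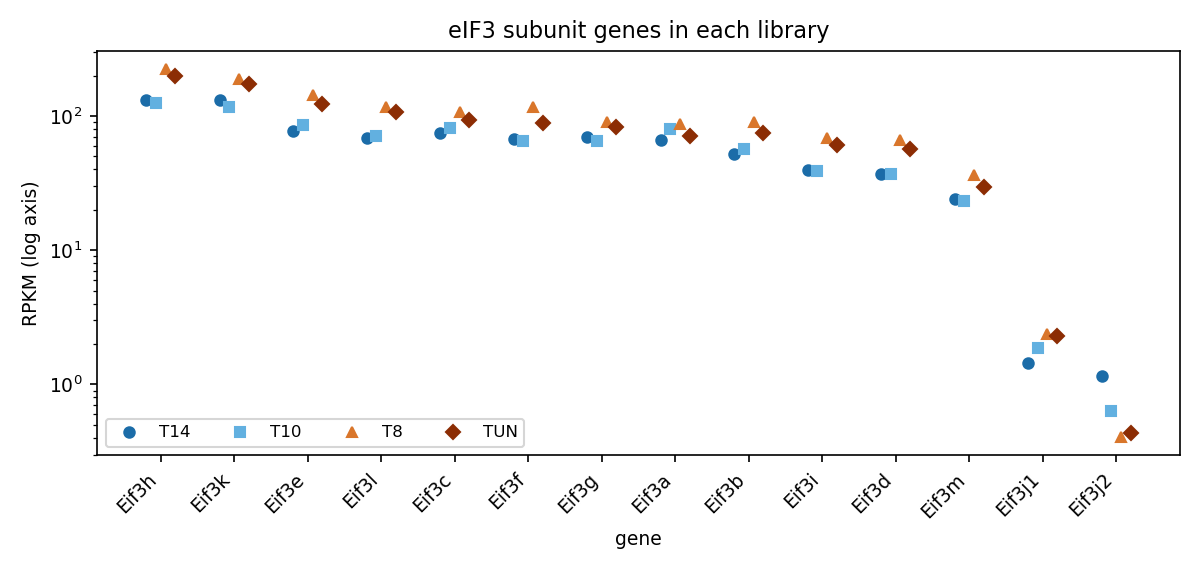
RPKM (log axis) of the 14 eIF3 genes in each library, ordered by mean. The 12 genes on the left lie between 23 and 223 RPKM with T8 highest, and Eif3j1 and Eif3j2 lie below 3 RPKM.

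Of the factors that pick the start codon, Eif1b (155 ± 12.1 RPKM, SD, n = 4), Eif5 (80.1 ± 5.6 RPKM) and Eif1ax (54.3 ± 3.51 RPKM) were the most abundant per length, and all 3 spanned under 1.2-fold between tumours. Eif1b exceeded Eif1 in all 4, with a log2 ratio of Eif1 to Eif1b of -1.71 ± 0.27. Stretches like the reading frame of Eif1 were found in 13 other annotated genes, so its level is uncertain. The 11 of these in the table held 1093 to 1615 counts per library against 2033 to 3030 for Eif1. These are counts of whole genes, among them the differently named gene Emd, so they are not all reads of Eif1 copies. Of the eIF2 subunits, Eif2s2 stood at 61.9, 73.2, 120.1 and 102 CPM and Eif2s1, which carries the phosphorylated serine, at 54.4, 54.4, 78.4 and 85.6 CPM. The third subunit has genes on both sex chromosomes. The X-linked Eif2s3x stood at 18.2, 16, 22.9 and 19.9 CPM, and the Y-linked Eif2s3y had 0 counts in every library, at least 143-fold to 199-fold lower per length when 0 is taken as up to 3 counts per library. Eif1a, Eif1ad, Eif2a, Eif2d and Eif5b, the rest of this group, spanned 1.24-fold to 1.8-fold. The Y-linked genes Ddx3y and Uty were at 0 too, Kdm5d had 1 count in T14, and Xist stood at 231 to 922.7 CPM.

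The 5 eIF2B genes were led by Eif2b5 (26.1 ± 3.73 RPKM), Eif2b2 (22.5 ± 3.58 RPKM) and Eif2b1 (15.4 ± 2.41 RPKM), with spans of 1.17-fold to 1.41-fold. Of the eIF2 kinases, Eif2ak3, the PERK gene of endoplasmic reticulum stress, stood at 82.8, 89.02, 97.6 and 98.8 CPM, and Eif2ak1, the heme-regulated kinase, at 83.4, 82.8, 87.9 and 86.9 CPM. Eif2ak4, the GCN2 gene of amino acid shortage, stood at 23.8, 28.8, 22.3 and 23.1 CPM, and its log2 ratio to Eif2ak3, per length, was -2.19 ± 0.24 and below 0 in all 4 tumours. Eif2ak2, the gene of the interferon-induced PKR, lay between 11.6 and 16.8 CPM. None of these 9 genes was called by edgeR or DESeq2.

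Among the cap-binding factors, Eif4g2, for an eIF4G relative that does not bind eIF4E, was the most abundant per length at 278 ± 52 RPKM (SD, n = 4), followed by Eif4b (128 ± 26.4 RPKM) and Eif4h (77.2 ± 6.97 RPKM), whose proteins assist the helicase. Eif4g2 stood at 1757, 1780.1, 2578 and 2047 CPM. The cap-binding gene Eif4e stood at 83.5, 90.3, 128 and 117 CPM, and its log2 ratio to Eif4e2, a repressive relative, was 0.74 ± 0.29 and above 0 in all 4 tumours. Eif4a3, for a helicase of the exon junction complex, stood at 76.6, 76.4, 123 and 129 CPM, and Eif4e3 between 10.6 and 12 CPM. Eif4e1b, a germ cell form, had 0 counts in every library.

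Eif4ebp1, for the best known 4E-binding protein (ENSMUSG00000031490.5, chromosome 8, 27260327 to 27275656, plus strand), was the member with the widest span after Eef1a2. It had 7.84 and 20.5 CPM in T14 and T10, against 90.7 and 56.6 CPM in T8 and TUN, an 11.6-fold span (adjusted p = 0.000826, edgeR goodness of fit). The call was lost without T14 (adjusted p = 0.102), and over the other alternatives in edgeR the adjusted p lay between 0.000295 and 0.0227. The other genes of the group moved little. Eif4ebp2 stood at 63.9, 73.7, 93 and 77 CPM and Eif4enif1, for the carrier of eIF4E into the nucleus, at 67.04, 67.5, 68.5 and 68.2 CPM, while Eif4ebp3 had 0 to 2 counts. Per length, Eif4ebp1 stood below Eif4ebp2 in T14 and T10 and above it in T8 and TUN, with log2 ratios of -2.15, -0.98, 0.83 and 0.42. In CPM, with no length correction, it stood below Eif4ebp2 in all 4, and the mean log2 ratio was -1.33 in place of -0.47.

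**Figure D5:**
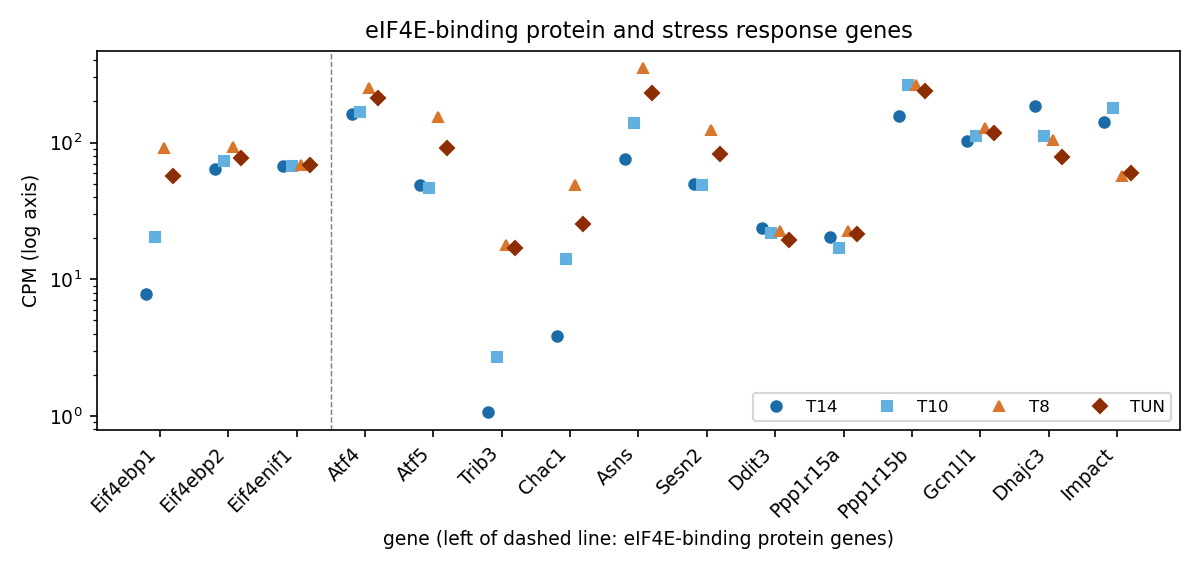
CPM (log axis) of 3 genes of 4E-binding proteins (left of the dashed line) and of all 12 genes listed for the integrated stress response (right), in each library. All 3 genes on the left, and Atf4, Trib3, Chac1, Asns and Gcn1l1 on the right, share the order T8, TUN, T10, T14, over spans that run from 1.02-fold in Eif4enif1 to 16.9-fold in Trib3.

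Eif4ebp1 is a known target of ATF4, the transcription factor made when eIF2 is phosphorylated, and some other ATF4 targets had a like pattern. Of the 12 genes listed for the integrated stress response, Trib3 and Chac1 were called by the edgeR goodness of fit (adjusted p = 0.00304 and 0.00656). Trib3, for a pseudokinase, stood at 1.06, 2.69, 17.9 and 17 CPM in T14, T10, T8 and TUN, and Chac1, for a glutathione-degrading enzyme, at 3.85, 14, 49.1 and 25.5 CPM. Asns, the asparagine synthetase gene, stood at 76.5, 138, 351 and 231 CPM, Atf5 at 48.7, 46.8, 153 and 91.4, and Atf4 itself at 162, 168, 250 and 211, none of them called. Not all genes of the response did this: Ddit3, for CHOP, lay between 19.5 and 23.6 CPM and Ppp1r15a between 17.1 and 22.5. The order of Eif4ebp1 (T8, TUN, T10, T14) was found in 5 of the 12 genes and 8.91% of all genes tested. Among the 63 members it was found in 20, Eif4ebp1 itself included. Impact, an inhibitor of GCN2 known from neurons, ran the other way, at 142, 179, 56.5 and 59.8 CPM. The part of ATF4 in the level of Eif4ebp1 was not tested.

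Trib3 and Chac1 were the 2 genes called by edgeR among the 60 genes of 6 lists of the translation machinery, and 7 of the 60 had an unadjusted p under 0.05: these 2, Asns, Atf5, Impact, Cyfip2 and Deptor. Over all genes tested, 4.34% were called, 8.38% had an unadjusted p under 0.05, and T8 and TUN were the 2 highest libraries for 32.9%. T8 and TUN were the 2 highest libraries for 8 of the 12 stress response genes and 6 of the 8 termination genes, among the last the release factor genes Gspt1 (180, 191, 259 and 253 CPM) and Etf1 (134, 110.4, 230 and 199 CPM) and the ribosome recycling gene Abce1 (147, 164, 231 and 225 CPM). In genes for the diphthamide and hypusine marks of eEF2 and eIF5A it was 7 of 9, led per length by Dph3 (20 RPKM), Dnajc24 (16.1 RPKM) and Dohh (14.5 RPKM). Of 12 genes of poly(A) binding and cap regulation it was 4. Pabpc1, the poly(A)-binding protein gene, stood at 317, 343, 713 and 527 CPM, Ddx3x between 472 and 576, and Cyfip2, for a partner of the RNA-binding protein FMRP, at 549.9, 465, 192 and 189. Of 11 mTORC1 genes it was 3, led per length by Akt1s1 (23.6 RPKM), Tsc2 (20.1 RPKM) and Rheb (18.1 RPKM), with Mtor at 104, 112, 86.3 and 79.1 CPM. Of 8 mitochondrial translation factor genes it was 1, with Gfm1 (11.9 RPKM), Mtif2 (8.53 RPKM) and Tsfm (7.23 RPKM) leading. Rps6, for a ribosomal protein that every cell needs, stood at only 1.42 to 1.88 CPM, and its reading frame has 11 annotated near copies, so its level is uncertain.

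The remaining member by name, Eif2c5, carries a former name of the Argonaute family and is no translation factor. It had 0 counts in every library. Members below 1 CPM in some tumour were thus Eif2c5, Eif2s3y, Eif4e1b, Eif4ebp3, Eef1akmt3 and Eif3j2. Where nothing was counted, the level can still reach 3 counts per library (0.122 to 0.134 CPM), a limit that covers counting error only.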

How the data were processed

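The authors deposited whole-number read counts per gene. The submitters' processing notes name STAR, featureCounts and the mm10 build. Tool versions, the strand option and how multi-mapped reads were treated: not given in the sources used here. The kit named in the labels does not mark strand. The deposited table (GENCODE vM8 genes, with merged exon length as another value) has 1 column per tumour, and 0 columns of sample values were left aside. Symbols came from an identifier table and matched 46451 of 46946 genes. The labels number the tumours but do not tie them to animals, so p-values measure only the spread between these samples, which may be technical in part.

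Counts were scaled by TMM in edgeR 4.0.16 (R 4.3.3). Variability was tested on the whole table with an intercept-only model at the trended dispersion, the residual deviance being compared with chi-square on 3 degrees of freedom and adjusted by Benjamini-Hochberg over 14266 genes, at a threshold of 0.05. The step was tested on simulated data with 200 changed genes. DESeq2 1.42.0 dispersion outliers, other scalings, no filter, and leaving out each tumour were alternatives. Log2 CPM used a prior count of 2. The 10 ratios were tested by a two-sided exact sign-flip test on log2(RPKM + 0.1). Near copies were sought with blastn 2.17.0 in GENCODE vM21 transcripts.

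Members, lists and ratios were chosen with earlier results of these data known. Genes named were the 3 markers (Eef1a1, Eef1a2, Eef2), the genes of the ratios, the 3 most abundant per length in each group of genes, every called or undetected member, and the 10 widest spans at mean CPM 5 or more. Genes named besides these were chosen after their values were seen.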

Additional observations from a re-analysis of the deposited data

Results flagged for a closer look

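Among 63 members and 10 ratios, Dixon's ratio passed its critical value for 4 samples once, where chance flags about 1 in 20. Eef1akmt2 stood at 19.2 CPM in T10, below the other 3 libraries (22.2 to 22.8 CPM).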

How the results depend on the processing

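DESeq2 dispersion outliers gave 0 members and 78 genes in all, against 2 and 619 in edgeR. Leaving out each tumour gave 1 to 2 members called: Eef1a2 was lost without TUN and Eif4ebp1 without T14. The mean log2 ratio of Eif4ebp1 to Eif4ebp2 was -0.47 and lay between -0.90 and 0.09 when each tumour was left out, turning positive (0.088) without T14. The cause was not tested. The other 9 ratios kept their direction in RPKM, in CPM, with a pseudocount of 1 and without each tumour. The mean log2 ratio of Eef1a1 to Eef1a2 then lay between 2.35 and 3.84. The size of Eif2s3x to Eif2s3y is set by the pseudocount, at 5.67 with 0.1 and 2.59 with 1. Without length correction Eif4ebp1 to Eif4ebp2 was -1.33 in place of -0.47, Eif1 to Eif1b -0.51 in place of -1.71, Eif4g1 to Eif4g3 0.89 in place of 1.5 and Eif4e to Eif4e2 0.43 in place of 0.74. The number of members detected was 62 in all settings run. No paired analysis was possible because there is 1 group and the columns carry no replicate number. Depth limited the tests to members above about 10 counts per library, which left out 5 of the 68. In simulated libraries, 0% of genes changed 2-fold in 1 library were found, 34% of those changed 4-fold and 57.4% of those changed 8-fold. Changes in more than 1 library were not simulated.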
